A study of Arabidopsis thaliana with 12 samples.

Results

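The 10 genes described here encode the enzymes that make jasmonic acid and its active conjugate: the lipoxygenases LOX2 (AT3G45140), LOX3 (AT1G17420), LOX4 (AT1G72520) and LOX6 (AT1G67560), the allene oxide synthase AOS (AT5G42650), the allene oxide cyclases AOC1 (AT3G25760), AOC2 (AT3G25770) and AOC3 (AT3G25780), the reductase OPR3 (AT2G06050) and the conjugating enzyme JAR1 (AT2G46370). They were taken by locus with no threshold on a measured value, though with earlier results of these data known, and are 10 of 27313 loci in the files. All 10 were among the 18149 genes tested.

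RNA came from rosette leaves of 4-week-old Arabidopsis thaliana kept at 22 °C in a day of 10 h light and 14 h darkness, with 3 leaves taken per plant. Leaves had been infiltrated by syringe 24 h earlier with latrunculin B (latB) or with its solvent DMSO, so every group shares the infiltration. LatB binds actin monomers and depletes actin filaments. The 4 groups, of 3 libraries each, were sid2 with 1 µM latB, sid2 with 0.01% DMSO, Col-0 wild type (WT) with 1 µM latB, and WT with 0.01% DMSO. The sid2 mutant lacks a working ICS1, the isochorismate synthase that starts the main route to salicylic acid. The labels name neither the sid2 allele nor any plant or batch, so p-values measure only the spread between these samples, which may be technical.

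Jasmonate synthesis starts in the chloroplast, where a lipoxygenase adds oxygen to linolenic acid. AOS and an AOC turn the product into 12-oxophytodienoic acid (OPDA). OPR3 reduces OPDA in the peroxisome, beta-oxidation shortens its side chain to jasmonic acid, and JAR1 joins jasmonic acid to isoleucine in the cytosol. Jasmonoyl-isoleucine binds the receptor COI1 with a JAZ repressor and so leads to the loss of the repressor. In leaves the pathway is known for responses to wounding, insects and necrotrophic fungi, and for opposing salicylic acid signalling.

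Library totals ran from 14506962 to 22449387 estimated reads. ICS1 transcripts were at 299 to 385 CPM in the sid2-labelled libraries with latB and 365 to 372 CPM in those with DMSO, against 111 to 161 CPM in WT with latB and 21.6 to 23.9 CPM in WT with DMSO. CPM are reads scaled to a common library size after TMM normalization. A mutant transcript can still be counted, so ICS1 does not test the genotype, and the labels alone stand behind each direction between genotypes. PR1, a salicylic acid marker, reached 7.59 CPM at most in the sid2-labelled libraries, while no WT library was under 79.4 CPM. Replicate numbers only name libraries, in the order of the samples. WT DMSO replicate 3 was the highest library of its group for 9 of the 10 synthesis genes, and WT DMSO replicate 1 the lowest for all 10. Among the sid2 libraries with latB, replicate 2 was the highest for all 10. On the third principal component of all genes, the value was 11.4 for sid2 DMSO replicate 3, but -43.0 for replicate 1 and -54.7 for replicate 2 of that group. Many values are also given without 1 of these libraries, but not every value.

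Per length, LOX2, AOS and AOC2 were the most abundant of the 10 in every group. In WT with latB their levels were 321 ± 30.5, 211 ± 37.2 and 247 ± 50.0 TPM (LOX2, AOS and AOC2; SD, n = 3), against 449 ± 99.0, 327 ± 70.3 and 416 ± 85.6 TPM in WT with DMSO. Neighbours among these 3 overlapped in every group, so their order among themselves is not resolved. AOC1 and OPR3 followed, in this order in sid2 with latB, sid2 with DMSO and WT with DMSO, and with OPR3 first in WT with latB. Libraries of AOC1 and OPR3 overlapped in every group except sid2 with DMSO, so their order is resolved only there. In WT with DMSO AOC1 also overlapped AOS. JAR1 held the sixth place in every group, with 18.3 ± 2.66 TPM in sid2 with latB, 16.6 ± 1.47 TPM in sid2 with DMSO, 48.1 ± 5.87 TPM in WT with latB and 40.7 ± 14.7 TPM in WT with DMSO. It overlapped the next lower gene in sid2 with latB (LOX4) and in WT with DMSO (LOX3). LOX3, LOX4, AOC3 and LOX6 held the last 4 places, and LOX6 lay between 4.47 and 9.18 TPM in all 12 libraries.

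**Figure D1:**
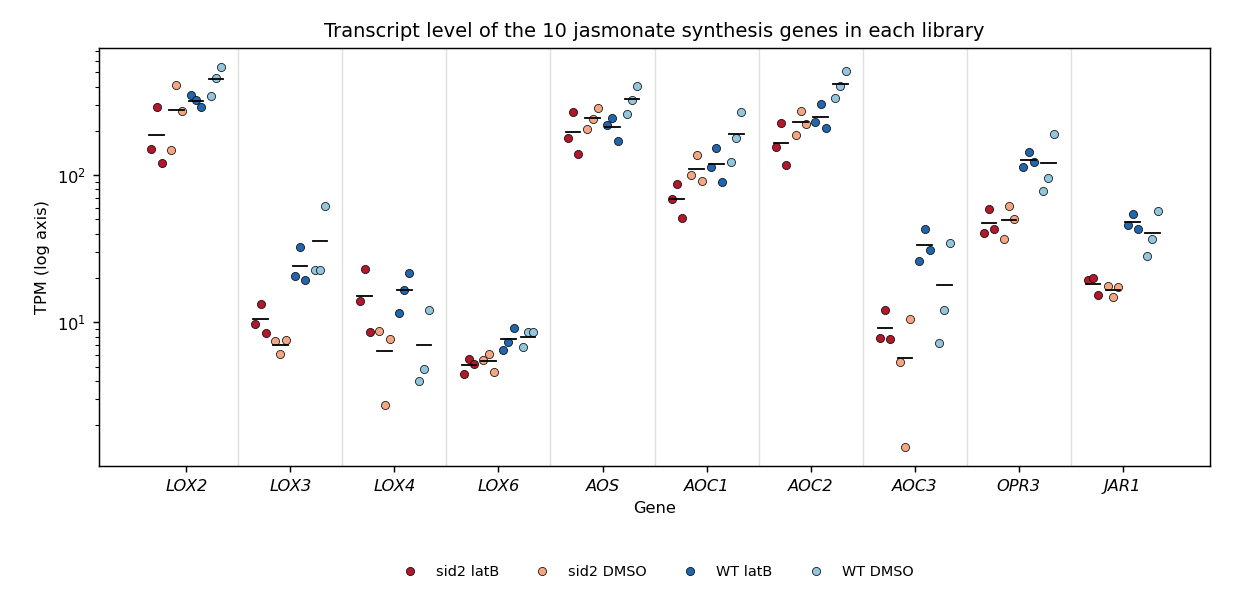
TPM (log axis) of the 10 genes in each library, with groups from left to right sid2 latB, sid2 DMSO, WT latB and WT DMSO, and a bar at each group mean (n = 3). LOX2, AOS and AOC2 have the highest group means throughout, and JAR1 is at most 20.1 TPM in the sid2 libraries and at least 28.4 TPM in the WT libraries.

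With latB, 6 of the 10 synthesis genes were lower in WT leaves at an edgeR adjusted p under 0.05, and none was higher. The background was high: of all genes tested, 44.8% changed in this comparison, 22.7% lower and 22.1% higher. The 6 were LOX2, LOX3, LOX6, AOS, AOC1 and AOC2. Only AOS and AOC2 passed in each of the 20 alternative settings and left-out libraries. The median log2 change of the 10 genes was -0.69, against -0.01 over all genes tested. The 4 mesophyll markers also fell in WT, with a summed level of 25979 to 34021 TPM with latB, against 57302 to 60375 TPM with DMSO. In bulk leaves fewer cells of a type and less RNA per cell cannot be told apart, and the part of these markers in the result was not tested. In sid2 leaves none of the 10 passed, where 4.73% of all genes did, 1.21% lower and 3.53% higher. Log2 values were -0.82 for AOC1, -0.62 for AOC2, -0.60 for LOX2 and -0.43 for AOS, while LOX3, LOX4, AOC3 and JAR1 were above 0. The difference in response between genotypes did not pass for AOC1, AOC2, LOX2 or AOS (edgeR adjusted p = 0.823, 0.386, 0.675 and 0.249). Without sid2 latB replicate 2 their sid2 values were -0.99, -0.87, -1.07 and -0.71. The share of all genes moved with single libraries, while none of the 10 passed in any fit with 1 library left out. Of all genes 859 passed with all libraries, 369, 496 or 378 without sid2 latB replicate 1, 2 or 3, 447 or 419 without sid2 DMSO replicate 1 or 2, and 1472 without sid2 DMSO replicate 3. Unadjusted p-values were under 0.05 for LOX4, AOC1 and AOC2 in sid2, and DESeq2 called 1 gene, AOC1 (adjusted p = 0.0362).

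The counts in WT depended on the scale. TMM scaling set the median gene near no change, and scaling by library size alone shifted that median by 0.34 (log2) upwards with latB in WT, where 6818 genes were then higher and 2521 lower, against 4012 higher and 4115 lower with TMM. With library size alone 0 synthesis genes were higher and 2 lower. By limma on log2(TPM + 1) 1 was higher, LOX4, and 2 were lower, where 6942 of all genes were higher and 2395 lower. Without WT DMSO replicate 3, 2 were higher, LOX4 and AOC3, and 2 lower, AOS and AOC2. Of all genes 3683 were higher and 3747 lower in that fit, so these counts lie near the background.

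**Figure D2:**
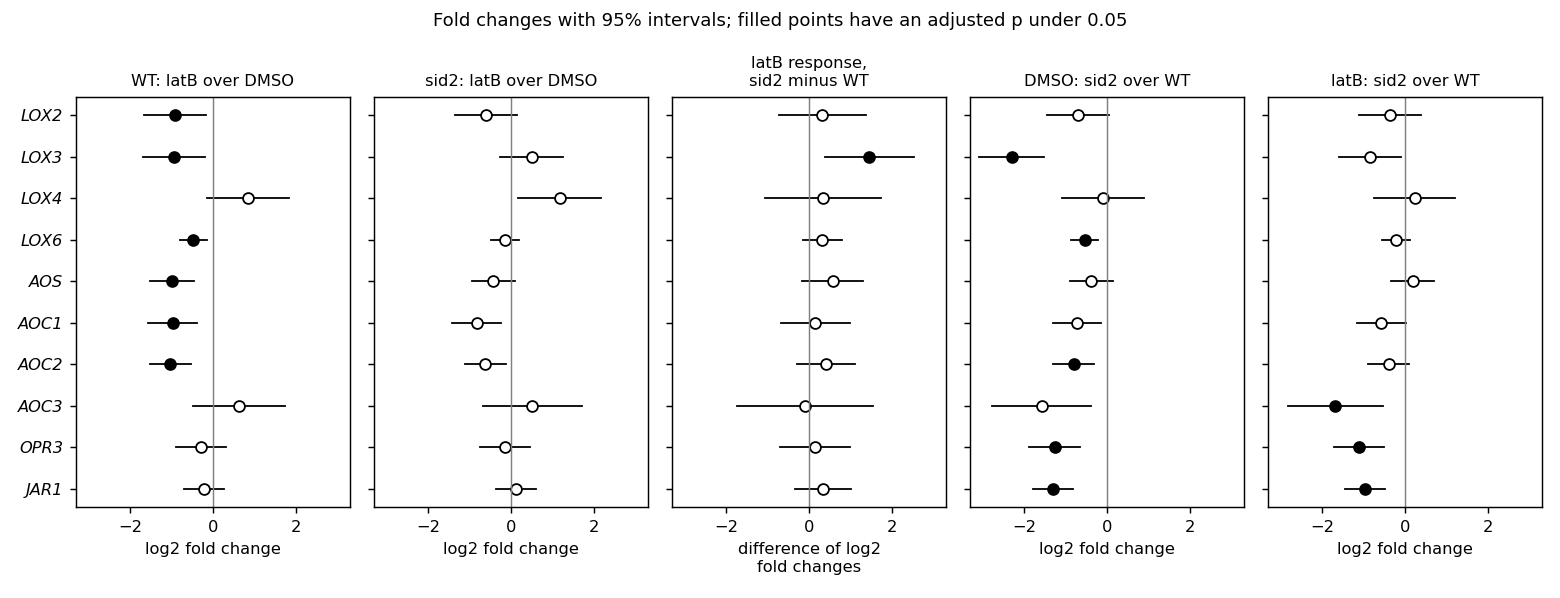
Log2 fold changes of the 10 genes with 95% intervals in 5 panels, 1 for each comparison, where filled points have an edgeR adjusted p under 0.05. With latB in WT the 6 filled points lie below 0, in sid2 none is filled, and both panels of sid2 over WT have filled points only below 0.

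The lipoxygenases come first in the route. LOX2 is the main lipoxygenase of jasmonate synthesis in wounded leaves. It had 648, 1246 and 503 CPM in sid2 with latB, 650, 1801 and 1177 CPM in sid2 with DMSO, 1136, 1109 and 865 CPM in WT with latB, and 1524, 1979 and 2368 CPM in WT with DMSO. The WT groups did not overlap in CPM, while the sid2 groups did. LOX2 fell 1.89-fold with latB in WT (log2 -0.92 ± 0.35 SE, edgeR adjusted p = 0.0453), and in TPM the WT groups overlapped. This call was lost in 12 of the 20 alternatives. Among these were the fits without sid2 latB replicate 1, sid2 DMSO replicate 3, any WT latB library, or WT DMSO replicate 2 or 3, with adjusted p between 0.0521 and 0.137.

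LOX3, which acts with LOX4 in male fertility, had the largest fold difference of the 10 between genotypes under DMSO. It had 42.8, 58.3 and 35.6 CPM in sid2 with latB, and 34.0, 27.2 and 35.3 CPM in sid2 with DMSO. In WT it had 69.3, 117 and 59.9 CPM with latB and 102, 102 and 270 CPM with DMSO. All 6 sid2 libraries were below all 6 WT libraries, and WT DMSO replicate 3 stood far above the other WT libraries. Under DMSO LOX3 was 4.92-fold lower in sid2 than in WT (log2 -2.30 ± 0.37 SE, edgeR adjusted p = 0.00149), and it passed in each of the 20 alternatives. Without WT DMSO replicate 3 the log2 difference was -1.66 (adjusted p = 0.00194).

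In sid2 the LOX3 libraries with latB lay just above those with DMSO without overlap, and the difference did not pass (log2 0.50 ± 0.35 SE, edgeR adjusted p = 0.462). With latB in WT, LOX3 was 1.93-fold lower than with DMSO (log2 -0.95 ± 0.35 SE, edgeR adjusted p = 0.0395), although the groups overlapped. Without WT DMSO replicate 3 this became -0.31 (0.367). The call was also lost without sid2 latB replicate 1 (0.0508), WT latB replicate 1 (0.12) or WT latB replicate 3 (0.145), by DESeq2 (0.0722) and in 4 other settings. LOX3 was the only one of the 10 to pass the test of a difference in latB response between the genotypes (sid2 minus WT 1.45 ± 0.50 SE on the log2 scale, edgeR adjusted p = 0.0475), where 24.2% of all genes tested differed, 13.4% with the higher response in sid2 and 10.7% with the lower. This difference was lost in 13 of 19 alternatives. It was 0.81 (0.114) without WT DMSO replicate 3, and the adjusted p was between 0.0599 and 0.116 without sid2 latB replicate 1 or 2, any sid2 DMSO library, or WT latB replicate 1 or 3. Under latB the value for sid2 over WT was -0.85 ± 0.35 (SE, edgeR adjusted p = 0.064), with no overlap between the libraries. It passed in 7 of 20 alternatives: without WT latB replicate 3 (0.047) or WT DMSO replicate 3 (0.0104), with library size alone (0.0175), by limma on log2(TPM + 1) (0.0159) or log2(TPM + 0.1) (0.016), with effective-length offsets (0.0392) and in the fit to the 6 libraries compared (0.017). In the other alternatives the adjusted p was at or above 0.0507, and the value was negative in all 20.

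LOX4, the partner of LOX3, had 63.1, 103 and 37.8 CPM in sid2 with latB, against 40.7, 12.9 and 37.0 CPM in sid2 with DMSO. In WT it had 41.4, 62.3 and 70.6 CPM with latB, against 18.9, 22.5 and 56.0 CPM with DMSO. Both pairs of groups overlapped, and neither passed (sid2 log2 1.17 ± 0.47 SE, edgeR adjusted p = 0.168, and WT 0.84 ± 0.46 SE, adjusted p = 0.158). Without WT DMSO replicate 3 the WT value was 1.49 (0.0186). Coding sequences of LOX3 and LOX4 were 80.1% identical and shared 0 words of 31 bases.

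LOX6, which takes part in rapid jasmonate production away from a wound, varied least of the lipoxygenases. It had 19.5, 24.3 and 22.2 CPM in sid2 with latB, 24.9, 27.8 and 20.8 CPM in sid2 with DMSO, 22.0, 26.3 and 28.9 CPM in WT with latB, and 30.8, 38.5 and 37.7 CPM in WT with DMSO. In CPM the WT libraries with DMSO lay above the other 9, while in TPM the WT groups overlapped. LOX6 fell with latB in WT (log2 -0.47 ± 0.15 SE, edgeR adjusted p = 0.0226) and was lower in sid2 than in WT under DMSO (-0.55 ± 0.16 SE, adjusted p = 0.038). On TPM the WT difference was -0.06 by limma on log2(TPM + 1) (0.778), and library size alone gave -0.13 (0.544). In WT the call was also lost without WT latB replicate 1 (0.097) or WT DMSO replicate 2 (0.0827) or 3 (0.0676). The difference under DMSO was lost in 10 of 20 alternatives, 7 of them with a library left out: sid2 latB replicate 1 or 3, sid2 DMSO replicate 1 or 3, WT latB replicate 2, or WT DMSO replicate 2 or 3 (adjusted p 0.0505 to 0.124).

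LOX2 made up most of the lipoxygenase transcripts of these 4 genes in all groups. Its share of their summed TPM was 85.4% ± 1.73 in sid2 with latB, 92.3% ± 4.71 in sid2 with DMSO, 86.8% ± 2.81 in WT with latB and 90.2% ± 2.99 in WT with DMSO (SD, n = 3). LOX4 held 4.57% ± 1.68 in WT with latB, against 1.33% ± 0.54 in WT with DMSO, and these libraries did not overlap. In sid2 LOX4 held 6.88% ± 0.90 with latB, against 2.79% ± 2.24 with DMSO, also without overlap. These shares were not tested.

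AOS, the enzyme that commits lipid hydroperoxides to the jasmonate route, had 441, 520 and 325 CPM in WT with latB, against 692, 836 and 1023 CPM in WT with DMSO. The groups did not overlap. AOS fell 1.98-fold (log2 -0.99 ± 0.24 SE, edgeR adjusted p = 0.00437), with adjusted p between 0.000281 and 0.0433 over the 20 alternatives. In sid2 it had 455, 660 and 336 CPM with latB, against 539, 645 and 765 CPM with DMSO, and the groups overlapped (log2 -0.43 ± 0.24 SE, adjusted p = 0.343). The response did not differ detectably between genotypes (sid2 minus WT 0.56, 95% interval -0.17 to 1.29, adjusted p = 0.249). Without sid2 latB replicate 2 the sid2 value was -0.71 and the difference between genotypes 0.28.

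The 3 cyclases lie in a row on chromosome 3 and are close in sequence. Coding sequences of AOC1 and AOC2 were 90.3% identical and shared 29 words of 31 bases, while AOC1 and AOC3 were 81.6% identical and shared 51. The longest run that AOC1 and AOC2 share, of 47 bases, is shown because a read within it cannot be assigned to either gene. It lies on the plus strand of TAIR10.1 at chr3:9404926-9404972 in AOC1, chr3:9407660-9407706 in AOC2 and chr3:9410230-9410276 in AOC3, all in coding exon sequence. The same place in the fourth copy, AOC4 (AT1G13280), is chr1:4548373-4548419. Capitals mark bases that differ from AOC1, of which AOC2 has 0, AOC3 2 and AOC4 7.
AOC1: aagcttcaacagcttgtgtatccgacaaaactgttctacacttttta
AOC2: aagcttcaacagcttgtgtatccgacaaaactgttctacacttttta
AOC3: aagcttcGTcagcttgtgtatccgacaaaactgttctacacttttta
AOC4: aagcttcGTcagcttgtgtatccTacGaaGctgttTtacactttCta
The split of reads between AOC1, AOC2 and AOC3 therefore rests partly on the estimation model, and their separate values are uncertain to that degree.

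AOC2 was the most abundant cyclase. It had 216, 291 and 185 CPM in WT with latB, against 402, 458 and 550 CPM in WT with DMSO, with no overlap. AOC2 fell 2.04-fold (log2 -1.03 ± 0.23 SE, edgeR adjusted p = 0.00239), and its adjusted p over the 20 alternatives lay between 8.53e-05 and 0.0217. In sid2 it had 170, 230 and 123 CPM with latB, against 224, 327 and 253 CPM with DMSO, and the groups overlapped (-0.62 ± 0.23 SE, adjusted p = 0.139). Under DMSO every sid2 library was below every WT library, and AOC2 was 1.75-fold lower in sid2 (-0.81 ± 0.23 SE, adjusted p = 0.0367). That call was lost in 6 of the fits with 1 library left out: sid2 latB replicate 1, sid2 DMSO replicate 1 or 3, or any WT DMSO library (adjusted p 0.0544 to 0.139).

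AOC1 followed AOC2 at a lower level. It had 104, 141 and 77.1 CPM in WT with latB, against 145, 197 and 286 CPM in WT with DMSO. AOC1 fell 1.95-fold there without overlap in CPM (log2 -0.97 ± 0.28 SE, edgeR adjusted p = 0.0108), while in TPM the WT groups overlapped. The adjusted p was 0.0546 without WT latB replicate 3, 0.0613 without WT DMSO replicate 3, 0.0618 with library size alone, and 0.0785 by limma on log2(TPM + 1). In sid2 it had 74.6, 86.9 and 52.8 CPM with latB, against 116, 162 and 101 CPM with DMSO, also without overlap (-0.82 ± 0.28 SE, edgeR adjusted p = 0.105). Summed over AOC1 to AOC4, cyclase reads fell in WT with latB (-0.93 ± 0.24 SE, edgeR adjusted p = 0.00541) and were lower in sid2 than in WT under DMSO (-0.78 ± 0.24 SE, adjusted p = 0.0485).

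AOC3 had the fewest reads of the 3 cyclases among the 10 genes. It had 7.74, 11.1 and 7.26 CPM in sid2 with latB, against 22.2, 37.0 and 24.5 CPM in WT with latB. With DMSO it had 5.76, 1.54 and 10.8 CPM in sid2, against 7.84, 12.3 and 33.9 CPM in WT. Under latB the genotypes did not overlap, and AOC3 was 3.21-fold lower in sid2 (log2 -1.68 ± 0.54 SE, edgeR adjusted p = 0.0203). The call was lost without sid2 latB replicate 1 (0.0682) or 3 (0.064) or WT latB replicate 2 (0.072). Under DMSO the value was -1.58 ± 0.55 (SE, adjusted p = 0.0848), and it was -2.28 (0.0265) without sid2 DMSO replicate 3 and -0.74 (0.399) without WT DMSO replicate 3.

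In WT the latB and DMSO libraries of AOC3 overlapped only through WT DMSO replicate 3 (0.62 ± 0.52 SE, edgeR adjusted p = 0.352), and without it the value was 1.46 (0.0309). The share of AOC3 in the summed TPM of the 3 cyclases was 8.38% ± 1.15 in WT with latB, against 2.62% ± 1.45 in WT with DMSO (SD, n = 3), and these libraries did not overlap. In sid2 it was 3.80% ± 0.50 with latB, against 1.80% ± 1.44 with DMSO, also without overlap. These shares were not tested.

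**Figure D3:**
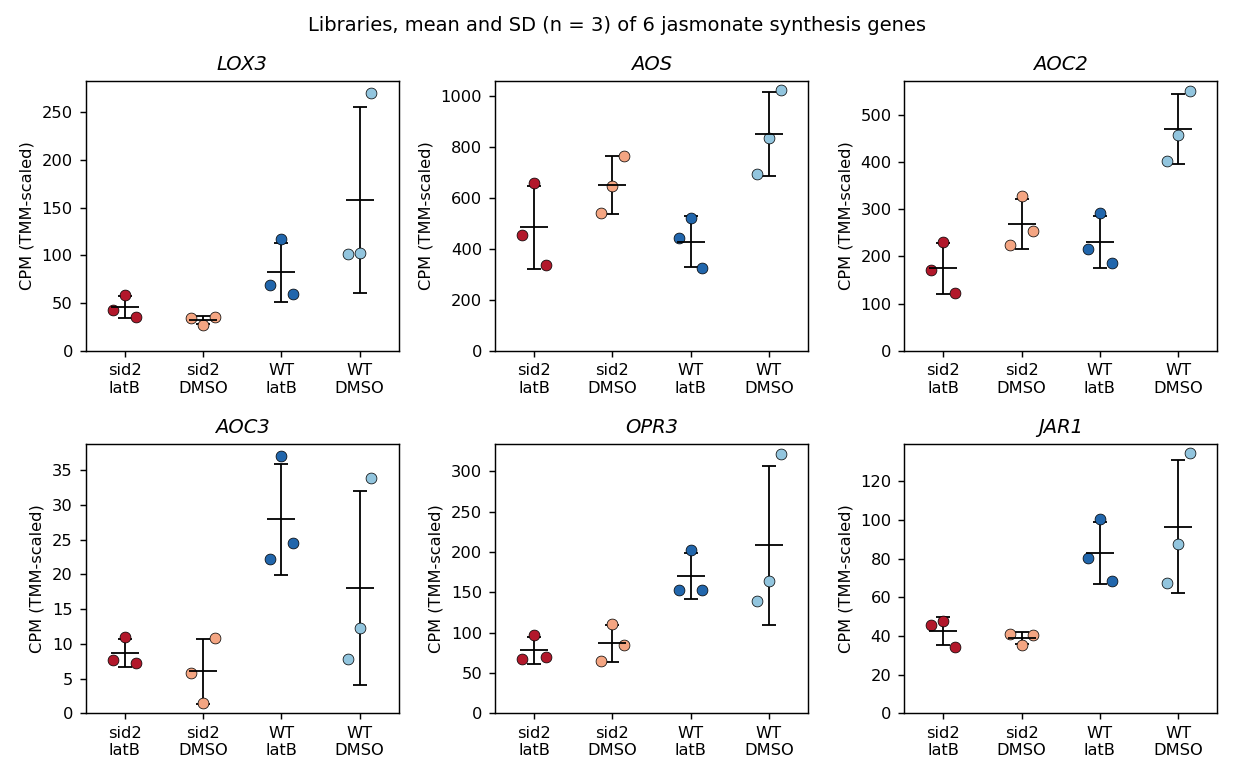
CPM of LOX3, AOS, AOC2, AOC3, OPR3 and JAR1 in each library (points), with mean and SD of 3 libraries, for sid2 latB, sid2 DMSO, WT latB and WT DMSO from left to right. WT DMSO replicate 3, the right-most point of each panel, is the highest of its group for all 6 genes, and for LOX3, OPR3 and JAR1 the 6 sid2 libraries lie below the 6 WT libraries.

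In the comparison of genotypes, 5 of the 10 synthesis genes were lower in sid2 than in WT under DMSO and none was higher. The 5 were LOX3, LOX6, AOC2, OPR3 and JAR1. Of all genes tested 11.0% differed, 6.56% lower and 4.46% higher. These 2001 genes became 1094 without sid2 DMSO replicate 1 and 1035 or 1291 without WT DMSO replicate 1 or 2. The median log2 difference was -0.77 for the 10 genes and 0.01 over all genes. Under latB 3 were lower, AOC3, OPR3 and JAR1, and none was higher, where 43.4% of all genes differed, 21.2% lower and 22.1% higher. Library size alone, under which the median gene shifted by -0.28 (log2) in that comparison, gave 7 lower. Of all genes 6071 were then lower and 2731 higher. Limma on log2(TPM + 1) gave 6 lower, where 6093 of all genes were lower and 2654 higher. Without WT latB replicate 3, 5 were lower, where 3172 of all genes were lower and 3300 higher. Under DMSO the count was 2 without sid2 DMSO replicate 1 and 3 without sid2 latB replicate 1, WT DMSO replicate 2 or WT DMSO replicate 3. Of all genes 740 were lower in the first of these fits, and 978, 815 and 971 in the others, in this order. OPR3 and JAR1 were lower in sid2 in both comparisons. The groups compared share no library, but both tests come from the same fit to all libraries and are not fully independent. Under DMSO 3 of 4 phloem markers were also higher in sid2, with a sum over the 4 of 290 to 308 TPM in sid2, against 170 to 238 TPM in WT. Under latB the 4 mesophyll markers were higher in sid2, at 49954 to 56049 TPM, against 25979 to 34021 TPM in WT. The part of these markers in the counts was not tested.

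OPR3, the reductase without which plants make little jasmonate and are male sterile, had 67.8, 96.7 and 69.3 CPM in sid2 with latB, against 153, 203 and 153 CPM in WT with latB. With DMSO it had 64.7, 110 and 85.1 CPM in sid2, against 139, 164 and 321 CPM in WT. No sid2 library reached the lowest WT library. OPR3 was 2.18-fold lower in sid2 under latB (log2 -1.12 ± 0.28 SE, edgeR adjusted p = 0.00544) and passed in all 20 alternatives. Under DMSO it was 2.40-fold lower (-1.26 ± 0.28 SE, adjusted p = 0.0121). That call was lost only without sid2 DMSO replicate 1 (-1.09, 0.0602), and the value was -0.81 without WT DMSO replicate 3.

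With latB against DMSO, OPR3 libraries overlapped in both genotypes. The log2 value was -0.30 in WT (95% interval -0.89 to 0.30, edgeR adjusted p = 0.415) and -0.15 in sid2 (-0.76 to 0.45, adjusted p = 0.814). In WT the sign depended on the scale, with 0.03 by library size alone, 0.17 by limma on log2(TPM + 1) and 0.16 without WT DMSO replicate 3.

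JAR1, which makes the active conjugate, had 45.4, 47.9 and 34.2 CPM in sid2 with latB, against 80.2, 100 and 68.6 CPM in WT with latB. With DMSO it had 41.1, 35.4 and 40.3 CPM in sid2, against 67.4, 87.5 and 134 CPM in WT. All 6 sid2 libraries had at most 47.9 CPM, and all 6 WT libraries had at least 67.4 CPM. JAR1 was 1.95-fold lower in sid2 under latB (log2 -0.97 ± 0.22 SE, edgeR adjusted p = 0.00307) and 2.48-fold lower under DMSO (-1.31 ± 0.23 SE, adjusted p = 0.00247). Both calls passed in all 20 alternatives, with -0.99 under DMSO without WT DMSO replicate 3.

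With latB against DMSO, JAR1 values were -0.22 in WT (95% interval -0.69 to 0.26, edgeR adjusted p = 0.451) and 0.13 in sid2 (-0.36 to 0.61, adjusted p = 0.805). In WT the sign turned with library size alone (0.11), by limma on log2(TPM + 1) (0.29) and without WT DMSO replicate 3 (0.10). The files hold 3 transcript models of JAR1, and the estimated split between them varied from library to library, with 22.7% to 92.4% of its reads on model 1 among the sid2 libraries with latB. As for all genes, the values given are sums over the locus.

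Promoters are shown for the 2 genes whose fall with latB in WT passed in every alternative, AOS and AOC2, and for the 3 whose lower level in sid2 did so in at least 1 comparison, LOX3, OPR3 and JAR1. Each is the 250 bases before the annotated gene start in TAIR10.1, read 5′ to 3′ on the gene's strand: chr5:17099596-17099845 (minus) for AOS, chr3:9406419-9406668 (plus) for AOC2, chr1:5977073-5977322 (plus) for LOX3, chr2:2362376-2362625 (minus) for OPR3 and chr2:19033336-19033585 (plus) for JAR1. Capitals mark CACGTG (the G-box), AACGTG or CACATG on either strand, words that MYC-type factors of jasmonate signalling are known to bind.
AOS: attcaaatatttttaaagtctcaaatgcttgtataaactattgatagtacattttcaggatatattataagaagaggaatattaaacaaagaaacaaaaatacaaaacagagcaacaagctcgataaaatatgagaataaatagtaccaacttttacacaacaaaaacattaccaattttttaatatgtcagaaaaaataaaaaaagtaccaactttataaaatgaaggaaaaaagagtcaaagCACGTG
AOC2: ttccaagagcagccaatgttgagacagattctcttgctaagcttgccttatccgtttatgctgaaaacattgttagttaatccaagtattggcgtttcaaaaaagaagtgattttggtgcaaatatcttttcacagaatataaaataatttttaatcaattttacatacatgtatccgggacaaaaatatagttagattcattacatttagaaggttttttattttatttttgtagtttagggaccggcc
LOX3: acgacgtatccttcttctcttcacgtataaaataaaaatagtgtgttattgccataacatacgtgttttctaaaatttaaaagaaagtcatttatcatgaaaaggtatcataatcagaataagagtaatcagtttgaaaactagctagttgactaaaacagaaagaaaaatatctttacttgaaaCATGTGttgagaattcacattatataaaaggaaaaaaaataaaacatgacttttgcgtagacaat
OPR3: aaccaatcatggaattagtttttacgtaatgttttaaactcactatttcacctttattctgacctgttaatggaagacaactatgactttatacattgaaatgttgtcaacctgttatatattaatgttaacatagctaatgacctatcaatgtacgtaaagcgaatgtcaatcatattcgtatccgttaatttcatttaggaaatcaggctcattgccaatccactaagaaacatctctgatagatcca
JAR1: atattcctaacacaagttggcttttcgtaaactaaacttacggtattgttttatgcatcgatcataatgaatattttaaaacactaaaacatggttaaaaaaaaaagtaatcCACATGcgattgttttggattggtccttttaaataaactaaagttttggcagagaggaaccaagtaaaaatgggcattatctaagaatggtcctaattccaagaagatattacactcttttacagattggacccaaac
CACGTG, which reads the same on both strands, stood in 1 of the 10 promoters, AOS, as the last 6 bases before the start, and in 6.6% of all 26635 promoters of this length. AACGTG, which the other strand reads as CACGTT, stood in LOX4 and AOC1 and in 7.6% of all promoters. CACATG, which the other strand reads as CATGTG, stood in LOX2, LOX3 and JAR1 and in 11.1% of all promoters. TGACG, which the other strand reads as CGTCA, stood in LOX4 and LOX6 and in 18.6% of all, and GCCGCC, which the other strand reads as GGCGGC, in none of the 10 and in 1.9% of all. Within these windows AOC2, AOC3 and OPR3 held none of the 5 words. A match describes letters only.

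The genes with the most similar profiles over the 12 libraries were found by the root mean square difference of log2 CPM, each gene centred on its own mean. GSTU5 (AT2G29450), a glutathione transferase, was the nearest to AOS (0.16, where AOS itself varied by 0.49 about its mean), to AOC2 (0.26, against 0.60) and to AOC1 (0.33, against 0.64). GSTU5 averaged 146 CPM in sid2 with latB, 197 CPM in sid2 with DMSO, 153 CPM in WT with latB and 265 CPM in WT with DMSO. For OPR3 it was ILL6 (AT1G44350), an amidohydrolase that splits jasmonoyl-isoleucine (0.32, against 0.68). For LOX6 it was FER (AT3G51550), a receptor kinase (0.15, against 0.30), and for LOX2 the arginase gene ARGAH2 (AT4G08870; 0.29, against 0.66). For JAR1 and LOX3 it was the replication gene CDC45 (AT3G25100; 0.25 and 0.45), which was at only 0.69 to 1.82 CPM in group means. For AOC3 it was CKX4 (AT4G29740), a cytokinin oxidase (0.41), and for LOX4 the locus AT5G54720 (0.36, against 0.82).

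Of 65 other genes of the jasmonate pathway, 59 were tested. With latB in WT 16 rose and 14 fell, a median log2 change of 0.06, where 22.1% of all genes rose and 22.7% fell. In sid2 3 rose and none fell (median 0.10), where 3.53% of all genes rose and 1.21% fell. Sid2 leaves differed from WT in 4 genes under DMSO, all lower (median -0.14), where 4.46% of all genes were higher and 6.56% lower. Under latB 9 were higher in sid2 and 15 lower (median -0.11), where 22.1% of all genes were higher and 21.2% lower.

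Of the 5 tested genes of substrate supply 4 fell with latB in WT and 1 rose, beside 22.7% and 22.1% of all genes. The omega-3 desaturases FAD3, FAD7 and FAD8 make linolenic acid, and all 3 fell with latB in WT. FAD3 (AT2G29980) had 17.4 ± 2.28 CPM in WT with latB, against 77.7 ± 15.5 CPM in WT with DMSO (SD, n = 3; log2 -2.16 ± 0.17 SE, edgeR adjusted p = 1.02e-06). FAD7 (AT3G11170) had 136 ± 24.1 CPM with latB, against 309 ± 9.75 CPM with DMSO, and FAD8 (AT5G05580) had 22.1 ± 2.77 CPM with latB, against 66.6 ± 9.03 CPM with DMSO. In sid2 FAD3 had 61.0 ± 4.45 CPM with latB, against 64.3 ± 10.9 CPM with DMSO, and no gene of this list passed there. The mesophyll markers fell in WT beside them, and their part was not tested. The response of all 3 desaturases differed between genotypes, by 2.08 (FAD3), 1.69 (FAD8) and 1.18 (FAD7) on the log2 scale, sid2 minus WT (edgeR adjusted p = 0.000138, 0.000685 and 0.000967). The locus AT1G02660, of the alpha/beta-hydrolase superfamily, also fell in WT, and AT3G62590 of the same superfamily rose (2.07 ± 0.24 SE, adjusted p = 1.31e-05).

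Among 6 related or competing enzymes, LOX5 (AT3G22400), a lipoxygenase of the other positional class, rose with latB in WT to 10.9 ± 1.89 CPM, against 2.28 ± 0.35 CPM with DMSO (log2 2.25 ± 0.31 SE, edgeR adjusted p = 5.72e-05). AOC4, the cyclase outside the row, fell to 6.84 ± 1.18 CPM with latB, against 13.9 ± 1.89 CPM with DMSO (-1.02 ± 0.24 SE, adjusted p = 0.00296). Of 9 genes of transport and beta-oxidation 4 rose and 2 fell in WT, beside 22.1% and 22.7% of all genes. The multifunctional protein gene MFP2 (AT3G06860) rose (0.91 ± 0.16 SE, adjusted p = 0.000479), as did the thiolase gene KAT2 (AT2G33150; 0.58 ± 0.16 SE, adjusted p = 0.00757). The acyl-CoA oxidase gene ACX5 (AT2G35690) fell (-0.76 ± 0.15 SE, adjusted p = 0.000924), although not by limma on log2(TPM + 1) (0.111).

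Turnover genes remove or modify jasmonates. Of 10 tested turnover genes 4 were lower in sid2 than in WT under latB and none higher: the amidohydrolase genes IAR3 (AT1G51760) and ILL6, the oxidase gene CYP94C1 (AT2G27690) and the sulfotransferase gene ST2A (AT5G07010). Of all genes 21.2% were lower and 22.1% higher in this comparison. IAR3 had 69.9 ± 7.70 CPM in sid2 with latB, against 220 ± 55.7 CPM in WT with latB (log2 -1.65 ± 0.26 SE, edgeR adjusted p = 0.000182). With DMSO it had 49.4 ± 19.9 CPM in sid2, against 113 ± 25.7 CPM in WT (-1.19 ± 0.26 SE, adjusted p = 0.0101). In WT IAR3 rose with latB (0.96 ± 0.26 SE, adjusted p = 0.00716) and so did CYP94C1 (1.66 ± 0.41 SE, adjusted p = 0.0044, and 2.38 without WT DMSO replicate 3). The methyltransferase gene JMT (AT1G19640) fell (-1.05 ± 0.34 SE, adjusted p = 0.0213), a call lost in 6 alternatives, among them the fits without WT latB replicate 3 (0.0936), WT DMSO replicate 2 (0.0636) or WT DMSO replicate 3 (0.0762). In sid2 JRG21 (AT3G55970), a jasmonate-regulated gene, rose to 18.2 ± 6.59 CPM, against 2.53 ± 1.59 CPM with DMSO (2.82 ± 0.66 SE, adjusted p = 0.0269). This was lost without sid2 latB replicate 1 (0.0816) or 3 (0.077) or sid2 DMSO replicate 1 (0.0664) or 2 (0.0832).

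Of 19 tested perception genes 5 rose and 2 fell with latB in WT, where 22.1% of all genes rose and 22.7% fell. The receptor gene COI1 (AT2G39940) rose (log2 0.51 ± 0.14 SE, edgeR adjusted p = 0.00827). The repressor genes JAZ5 (AT1G17380) and JAZ1 (AT1G19180) rose (1.90 ± 0.44 SE, adjusted p = 0.00326, and 1.46 ± 0.39 SE, adjusted p = 0.00703), by 2.85 and 2.27 without WT DMSO replicate 3. JAZ1 overlapped in WT, with 19.7 to 38.8 CPM with latB, against 5.61 to 20.8 CPM with DMSO. In sid2 JAZ1 had 25.8 to 37.9 CPM with latB, against 14.1 to 19.5 CPM with DMSO, without overlap, and did not pass. JAZ3 (AT3G17860) fell to 14.7 ± 2.65 CPM with latB, against 37.9 ± 7.43 CPM with DMSO (-1.37 ± 0.25 SE, adjusted p = 0.000509). In sid2 none of the 19 passed, where 4.73% of all genes did. Under DMSO 6.56% of all genes were lower in sid2 than in WT and 4.46% higher. JAZ10 (AT5G13220) was the 1 perception gene lower in sid2 there, at 0.81 to 1.57 CPM, against 2.77 to 12.1 CPM in WT (-2.42 ± 0.54 SE, adjusted p = 0.0115). It was -1.54 without WT DMSO replicate 3 and was lost without sid2 DMSO replicate 1 (0.0578).

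Of 10 tested response genes 3 rose and 4 fell with latB in WT, against the same shares of all genes, 22.1% and 22.7%. The storage protein gene VSP2 (AT5G24770) fell to 2.78 ± 0.98 CPM with latB, against 44.4 ± 13.3 CPM with DMSO (log2 -4.01 ± 1.17 SE, edgeR adjusted p = 0.0124, and 0.0517 without WT latB replicate 3). In sid2 with DMSO its libraries spread from 3.10 to 138 CPM. The transcription factor gene NAC019 (AT1G52890) rose to 24.4 to 50.5 CPM with latB, against 3.24 to 7.44 CPM with DMSO (2.80 ± 0.34 SE, adjusted p = 2.22e-05). TAT3 (AT2G24850), a tyrosine aminotransferase gene induced by jasmonate, had 61.5 ± 12.1 CPM in sid2 with latB, against 613 ± 123 CPM in WT with latB (-3.32 ± 0.40 SE, adjusted p = 2.21e-05). With DMSO it had 18.5 ± 11.7 CPM in sid2, against 269 ± 50.9 CPM in WT (-3.86 ± 0.42 SE, adjusted p = 6.62e-05). TAT3 libraries with latB lay above those with DMSO in WT too, at 483 to 728 CPM, against 217 to 319 CPM. In sid2 TAT3 rose with latB (1.74 ± 0.39 SE, adjusted p = 0.0221). This call was lost without sid2 latB replicate 1 (0.0575) or 2 (0.0692) or sid2 DMSO replicate 2 (0.0523), and in the fit to the 6 libraries compared (0.0788). The defensin gene PDF1.2 (AT5G44420) had 20.3 ± 6.99 CPM in sid2 with latB, against 2.56 ± 2.95 CPM in WT with latB (3.02 ± 0.66 SE, adjusted p = 0.002, and 4.54 without WT latB replicate 2). ORA59 (AT1G06160), a regulator of PDF1.2, had 1.75 ± 1.01 CPM in sid2 with latB and 0 reads in sid2 with DMSO, at least 25.2-fold higher against a floor of 3 reads over the group.

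**Figure D4:**
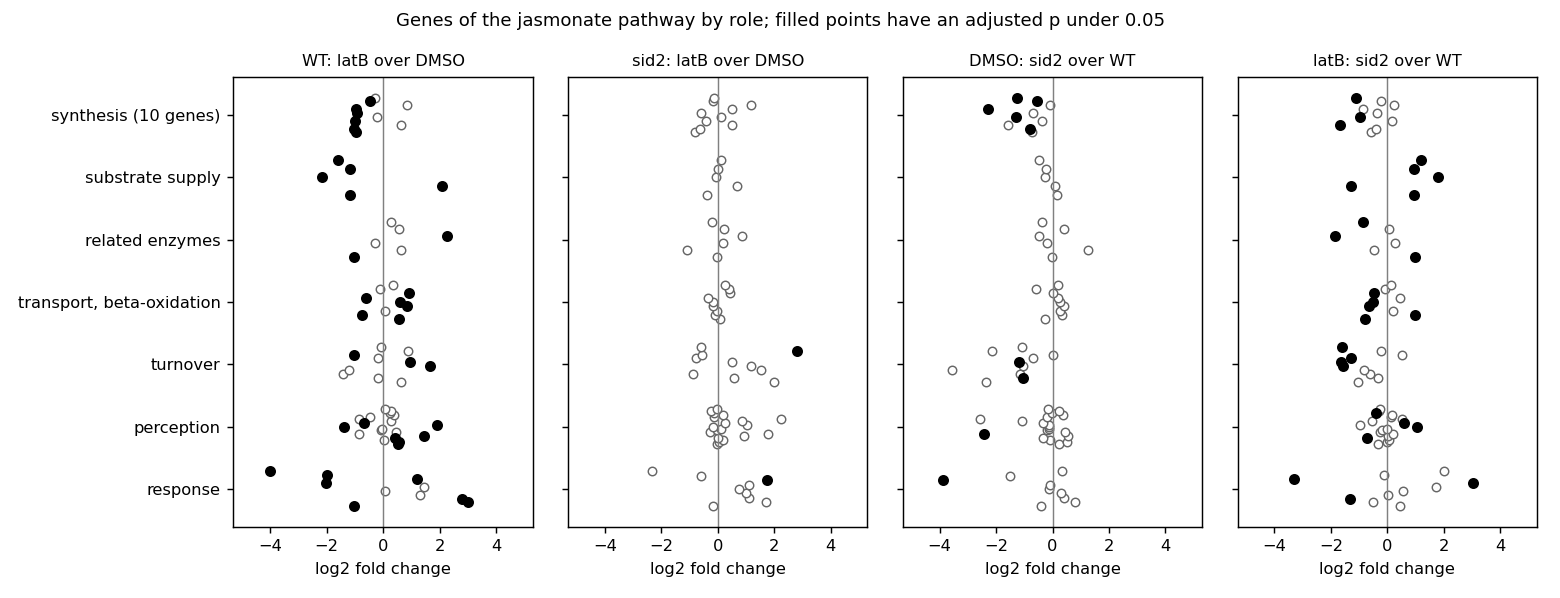
Log2 fold changes of the tested jasmonate pathway genes by role in 4 comparisons, where filled points have an edgeR adjusted p under 0.05 and ORA59 is left out where 1 group had no reads. The panel of latB over DMSO in WT has filled points on both sides of 0, and that in sid2 has 2 of its 3, JRG21 and TAT3, in the plot.

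Other cell type markers moved with some of these groups too, and their part in the results was not tested. The 4 mesophyll markers, which fell in WT with latB, summed in sid2 to 49954 to 56049 TPM with latB, against 50369 to 57884 TPM with DMSO. Of 4 phloem markers 3 fell with latB in sid2, with a sum over the 4 of 192 to 206 TPM with latB, against 290 to 308 TPM with DMSO. Of 3 tested epidermis markers 3 fell in WT with latB, with a sum over all 4 of 42.9 to 68.9 TPM with latB, against 67.0 to 90.1 TPM with DMSO, and PDF1 was at 0 in WT with latB. The 4 guard cell markers summed to 37.5 to 52.9 TPM in WT with latB, against 10.4 to 15.7 TPM in WT with DMSO, with 1 of them higher and 2 lower. Of 4 xylem markers 1 fell in WT with latB. The flower marker AP3 and the root marker CASP1 were at 0 in all groups, and the 2 root markers summed to at most 0.10 TPM.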

How the data were processed

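RNA was measured in 12 libraries, 4 groups of 3. The deposited files hold estimated counts and TPM per transcript, for which the submitters' processing notes name Trimmomatic, Salmon 1.3.0 and the build TAIR10. Nearly all transcript lengths (99.99%) are multiples of 3, so levels are per coding length. The authors' deposited TPM were summed per locus, and the deposited estimated counts were summed per locus and rounded.

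Counts of 18149 genes left by edgeR's expression filter were fitted in 1 quasi-likelihood model of the 4 groups (edgeR 4.0.16, R 4.3.3, TMM scaling), with Benjamini-Hochberg adjustment over all of them and a threshold of 0.05. The step was also run on simulated data in which few genes changed, and that run does not test the scaling or the calls given here. Alternatives used limma 3.58.1 and DESeq2 1.42.0, other scalings, no filter, effective-length offsets, the 6 libraries compared, summed cyclases and each library left out. Sequences came from TAIR10.1 (RefSeq), aligned with MAFFT 7.526. Tables and plots used Python 3.11.15, pandas 2.3.3 and matplotlib 3.10.9.

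Members and lists were chosen with earlier results of these data known. Named pathway genes are those among the up to 4 smallest adjusted p-values per list and comparison. Other pathway genes appear only in counts, apart from AT1G02660, named after its values were seen.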

Additional observations from a re-analysis of the deposited data

Results flagged for a closer look

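For 16 genes, among the 10 synthesis genes and the 59 other pathway genes tested, the latB response differed between genotypes by edgeR's quasi-likelihood test of the difference, given here as sid2 minus WT on the log2 scale. Of all genes tested 24.2% differed, so this count lies near the background. Among the 10 synthesis genes it was LOX3 alone (1.45, adjusted p = 0.0475). Among perception genes the differences were 2.63 for JAZ10, 1.19 for JAZ3 and 0.93 for JAZ6. JAZ10 passed in all 20 alternatives, at 1.75 without WT DMSO replicate 3, while JAZ3 was lost in 7 and JAZ6 in 9.

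The desaturases differed by 2.08 (FAD3), 1.69 (FAD8) and 1.18 (FAD7), and AT3G62590 by -1.40, each in all 20 alternatives. In beta-oxidation and transport the values were -1.03 for AT1G70480, in all 20, -0.77 for KAT2, lost in 3, and 0.66 for ACX5, lost in 11.

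LOX5 differed by -1.39, lost in 8 alternatives, and AOC4 by 1.01, lost in 11 of 19. Among response genes NAC019 differed by -1.71, in all 20, and PDF1.2 by 3.11, lost without sid2 DMSO replicate 1 (0.0506) or WT latB replicate 1 (0.0515) and at 4.63 without WT latB replicate 2. ORA59 had no reads in sid2 with DMSO, so its 6.54 depends on the prior count, and it was lost in 5 of 18 alternatives.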

How the results depend on the processing

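No called value of the 10 synthesis genes changed sign in any alternative, and the sign changes below are of values that did not pass. With latB in WT, library size alone gave 0.033 for OPR3 and 0.11 for JAR1, and limma gave 0.17 with either pseudocount (1 or 0.1) for OPR3 and 0.29 with either for JAR1. As a sum of cyclases AOC3 took -0.93 in WT, -0.63 in sid2 and 0.31 in the difference of responses, where effective-length offsets gave 0.0082. In that difference limma gave, with pseudocounts 1 and 0.1, -0.082 and -0.083 for LOX2, -0.088 and -0.082 for LOX4, -0.014 and -0.019 for LOX6, -0.029 and -0.033 for AOC1, -0.21 and -0.21 for OPR3, and -0.16 and -0.16 for JAR1, and library size alone gave -0.033 for AOC1 and -0.035 for OPR3. For sid2 over WT under latB, library size alone gave -0.057 for LOX4 and -0.093 for AOS, and limma -0.18 and -0.20 for LOX4 and -0.15 and -0.15 for AOS.

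Counts moved as follows. In WT 1 synthesis gene was higher with each limma fit, and 2 were lower with library size alone and each limma fit. The limma fits (pseudocounts 1 and 0.1) called 6942 and 6804 of all genes higher there, and 2395 and 2422 lower. In sid2 DESeq2 gave 1 lower, and all genes past the threshold numbered 1473 with library size alone, 1593 by DESeq2 and 358 in the fit to 6 libraries, against 859. The difference of responses had 0 synthesis genes with library size alone, DESeq2, each limma fit or effective-length offsets. Of all genes DESeq2 called 2640 higher and 2363 lower in this difference, and the offsets 2497 higher and 2020 lower. The limma fits called 1644 and 1620 of all genes higher in it, and 3583 and 3194 lower. Under DMSO the fit to 6 libraries called 1044 of all genes, against 2001. Under latB 7 synthesis genes were lower in sid2 with library size alone and 6 with each limma fit. The limma fits called 6093 and 5819 of all genes lower there, and 2654 and 2651 higher. Library size alone also moved the split of all genes to 1346 higher and 127 lower in sid2 (640 and 219 with TMM), 1820 and 2975 in the difference (2436 and 1948), and 2731 and 6071 for sid2 over WT under latB (4020 and 3850), with median shifts of 0.15, -0.19 and -0.28.

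Leaving out 1 library at a time gave ranges. In WT they were -0.52 to 0.16 for OPR3, -0.42 to 0.10 for JAR1, 0 to 2 synthesis genes higher and 2 to 6 lower. Of all genes 6814 to 8525 passed there. In sid2 they were -0.34 to 0.058 for OPR3 and 369 to 1472 of all genes. In the difference they were -0.15 to 0.73 for LOX2, -0.32 to 0.62 for LOX4, -0.15 to 0.38 for AOC1, -0.95 to 0.60 for AOC3, -0.31 to 0.37 for OPR3 and 0 to 1 synthesis gene higher. Of all genes 3394 to 4542 passed in the difference. Under DMSO they were -0.38 to 0.55 for LOX4, 2 to 5 synthesis genes lower and 1035 to 2347 of all genes. Under latB they were -0.20 to 0.51 for LOX4, -0.11 to 0.37 for AOS, 2 to 5 synthesis genes lower and 6472 to 8340 of all genes. The cause of these changes was not tested. No paired analysis was possible because the labels give the groups no shared replicate numbers. Depth limits values that rest on few reads. Among the 10 synthesis genes AOC3 had the fewest, at 20 to 152 reads in sid2 with DMSO, and some named pathway genes had fewer, such as ORA59 with 0 there.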
